A study of Homo sapiens with 16 samples.

Results

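The genes that encode the replication-dependent histones were followed through total RNA of islet cultures made from HUES08, an established human embryonic stem cell line of WT genotype. Members were the genes whose symbol is one of the numbered H1, H2A, H2B, H3 or H4 cluster symbols, pseudogenes left out, and which held at least 16 reads over the 16 libraries. The rule used names and read totals only, and it found 63 genes among 62754. Another 6 genes with such names fell below the read minimum, namely H1-1 with 1 read, H4C7 with 1, H2BC1 with 5, H3C3 with 10, H3C4 with 11 and H2BC3 with 13.

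The cultures received 1 of 7 compounds or the solvent DMSO with their growth medium, starting at stage 5 of the differentiation and ending after 7 days of stage 6. Each group had 2 libraries. The compounds were colchicine at 10 nM (a blocker of tubulin polymerisation), epirizole at 2.5 uM (an anti-inflammatory drug), Ly-294002 at 120 nM (a PI3 kinase inhibitor), moxifloxacin at 1.1 uM (a fluoroquinolone antibiotic), rottlerin at 1.23 uM (used as a kinase inhibitor), vardenafil at 125 nM (a phosphodiesterase inhibitor) and rimonabant at 125 nM (which blocks the cannabinoid receptor CNR1). The series picked the compounds computationally as ones that might affect beta-cell maturation, and the comparisons with DMSO ask which transcripts each of them moved. All libraries came from a single cell line and carried the same batch number, 1. Nothing in the labels tells whether both libraries of a treatment were grown as separate differentiations, so p-values describe variation among libraries and part of it may be technical.

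Replication-dependent histones package newly made DNA, and their genes are transcribed chiefly in S phase under the coactivator NPAT. Their typical transcripts have no introns and, unlike most other messenger RNAs, no poly(A) tail. They end just behind a short stem-loop that is bound by SLBP and cut with the help of the U7 small nuclear RNA. These transcripts are degraded when DNA synthesis stops. Some members also had annotated models that were spliced or ran on behind the stem-loop. Their reads need not all come from typical transcripts. Libraries made by removing ribosomal RNA, as these were, keep RNA without a tail, whereas libraries selected for poly(A) lose most of it. The replacement histones H3.3 and H2A.Z are made from ordinary polyadenylated transcripts throughout the cell cycle.

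The stem-loop was read from the GENCODE release 29 transcripts (GRCh38). Of the 63 members, 31 had a transcript model holding it, and 28 of the other members had a single-exon model with a length of whole codons. A model of the coding sequence alone ends before the stem-loop would come. The model of H4C3, counted here, is not such a model, with 435 bases against a RefSeq length of 405. In the last 150 bases of their transcripts, 8 of 19853 other protein-coding genes (0.0403%) held the same pattern. Members were searched over the whole transcript, and in 13 of them the model ran on for more than 700 bases behind the stem-loop. The share of other genes therefore comes from a narrower search and cannot be set directly against that of the members. The sequences below show the forms that occurred, from 5′ to 3′ in DNA letters, with the 16 bases of the stem-loop in capitals. They are shown because this element, in place of a poly(A) tail in the typical transcripts, sets these genes apart in total RNA.
H3C10: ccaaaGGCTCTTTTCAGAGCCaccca
H2AC8: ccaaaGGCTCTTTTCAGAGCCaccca
H2AC11: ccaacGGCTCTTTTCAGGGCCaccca
H2BC4: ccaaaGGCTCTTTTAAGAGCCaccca
H3C6: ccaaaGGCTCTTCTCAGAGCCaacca
H4C5: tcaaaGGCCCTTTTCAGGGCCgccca
H4C16: caaaaGGCCCTTTTCAGGGCCcccaa
H4C14: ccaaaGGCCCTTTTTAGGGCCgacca

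The form printed for H3C10 and H2AC8 was found in 17 members, all of them H2A, H2B or H3 genes. The form of H4C5 and H4C16 was found in 5 members and that of H4C14 in 3, all of the H4 class. The form of H2BC4 occurred in 4 members, and those of H3C6 and H2AC11 in 1 member each. The model ended within 60 bases of the stem-loop in 11 members. It ran on for more than 700 bases in 13 members, among them H3C10 and H4C5, and the longest stretch behind a stem-loop was 1917 bases.

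The 63 genes lay in clusters. On GRCh38, 49 of them lay on chromosome 6 between 25726132 and 27893843, 13 on chromosome 1 and 1, H4C16, on chromosome 12. In 50 members every annotated transcript was a single exon. Annotated start sites lay head to head within 500 bp in 11 pairs, of which 10 joined an H2A and an H2B gene. The RefSeq table of promoters (GRCh38.p14) matched 58 members, and the 250 bases before the start were searched for TATAAA on the coding strand and for CCAAT, ATTTGCAT and AAACACA on both strands. None of these motifs contains another, and a match is a description of letters, not of a bound factor.

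TATAAA stood in 33 of 58 members' promoters (56.9%), against 6.8% of all 35116 promoters in the table. CCAAT stood in 49 of 58 (84.5%), against 32% of all promoters, and the exceptions were in the H4 class, where 3 of 12 had it. The octamer ATTTGCAT was found in 11 of 16 H2A and 12 of 16 H2B promoters and in none of the 5 H1, 9 H3 and 12 H4 promoters, against 1.63% of all promoters. Head-to-head genes can share most of the searched bases, as H2AC11 and H2BC11 do. A CCAAT or octamer site can then be counted for both genes, so the H2A and H2B counts are not independent. AAACACA, the H1 box, stood in 5 of 5 H1 promoters and in no other member's, against 4.82% of all promoters. Promoters from the H1, H2B, H3 and H4 classes follow, with the motifs in capitals and each sequence read towards its gene. H3C10 and H3C13 are shown for H3 because they are the members that passed the test in a comparison, H2BC8 because it lies 283 bp from the start of H2AC8, and H1-2 and H4C5 because they had the most reads of their classes.
H1-2, chr6:26056471-26056720, minus strand: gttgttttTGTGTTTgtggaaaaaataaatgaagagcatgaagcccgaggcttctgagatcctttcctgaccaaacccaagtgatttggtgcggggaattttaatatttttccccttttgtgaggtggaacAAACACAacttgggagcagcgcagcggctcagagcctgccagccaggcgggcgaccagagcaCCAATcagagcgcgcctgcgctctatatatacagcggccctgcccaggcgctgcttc
H2BC8, chr6:26216689-26216938, minus strand: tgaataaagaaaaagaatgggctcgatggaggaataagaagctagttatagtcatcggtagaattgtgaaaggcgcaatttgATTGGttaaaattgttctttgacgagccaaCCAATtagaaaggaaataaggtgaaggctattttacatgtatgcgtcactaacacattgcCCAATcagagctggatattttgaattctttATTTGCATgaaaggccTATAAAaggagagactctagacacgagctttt
H3C10, chr6:27809801-27810050, plus strand: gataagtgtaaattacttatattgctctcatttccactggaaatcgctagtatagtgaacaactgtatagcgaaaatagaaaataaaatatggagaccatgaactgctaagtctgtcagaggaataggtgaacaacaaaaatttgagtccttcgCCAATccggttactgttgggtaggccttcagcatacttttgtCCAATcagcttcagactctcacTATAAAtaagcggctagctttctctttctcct
H3C13, chr1:149813694-149813943, minus strand: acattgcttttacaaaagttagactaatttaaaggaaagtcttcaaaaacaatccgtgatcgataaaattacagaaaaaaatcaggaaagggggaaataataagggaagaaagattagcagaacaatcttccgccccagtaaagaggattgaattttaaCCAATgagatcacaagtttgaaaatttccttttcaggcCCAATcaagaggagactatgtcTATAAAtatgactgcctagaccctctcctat
H4C5, chr6:26204360-26204609, plus strand: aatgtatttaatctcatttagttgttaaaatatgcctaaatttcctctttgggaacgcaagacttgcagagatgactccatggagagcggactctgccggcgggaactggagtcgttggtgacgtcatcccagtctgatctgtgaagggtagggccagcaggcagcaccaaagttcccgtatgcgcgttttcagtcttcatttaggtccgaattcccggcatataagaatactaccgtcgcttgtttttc

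Library totals ran from 23294377 to 30701868 reads, and 3 reads, the number taken as the limit of detection, came to 0.0977 to 0.129 CPM (counts divided by the library total and multiplied by 1000000). This limit covers counting error only, since these reads carry no molecular identifiers. Of the 63 members, 57 passed the filter on low counts and were tested among 24515 genes. The 6 that did not pass were H2AC7, H2AC1, H4C15, H3C1, H2AC17 and H1-6, with 26 to 60 reads each in all. H1-6 and H2AC1 encode histones best known from the testis. The model of H2AC7 shared 97.97% of its 50-base stretches with an overlapping gene on the same strand, and that of H2AC17 shared 86.34% with H3C12, so their low counts are uncertain.

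Histone reads were spread unevenly over the members. The 10 genes with the most reads held 48.22% of all histone reads, 41 members averaged more than 10 CPM and 12 averaged less than 1 CPM. By class, H2B genes held 30.3% of the histone reads, H4 genes 24.03%, H2A genes 18.72%, H1 genes 16.09% and H3 genes 10.86%. H4C5, a core histone H4 gene, had the most, with a lowest value of 128.7, a median of 144.3 and a highest value of 172.4 CPM over the 16 libraries. The linker histone gene H1-2 had 52.8, 83.8 and 108.7 CPM at these points, and H1-4, another linker histone gene, had 58.1, 72.0 and 97.5 CPM.

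Among H2A genes the most reads came from H2AC8, with a median of 65.9 CPM, and H2AC6, with 41.1 CPM. Among H2B genes they came from H2BC4 (59.3 CPM) and H2BC21 (52.5 CPM), among H3 genes from H3C2 (37.9 CPM) and H3C6 (29.4 CPM), and H4C3 followed H4C5 with 49.8 CPM. Longer transcripts collect more reads, so order between genes was read per kilobase. On RefSeq lengths, H4C5 led with a mean of 360.6 CPM per kilobase over a length of 412 bases, ahead of H2AC8 with 129.0. On the exon length of the GENCODE models, in which H4C5 measures 1487 bases, H4C5 had 99.9 and H2AC8 led with 131.1. The order at the top therefore changed with the transcript model.

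**Figure D1:**
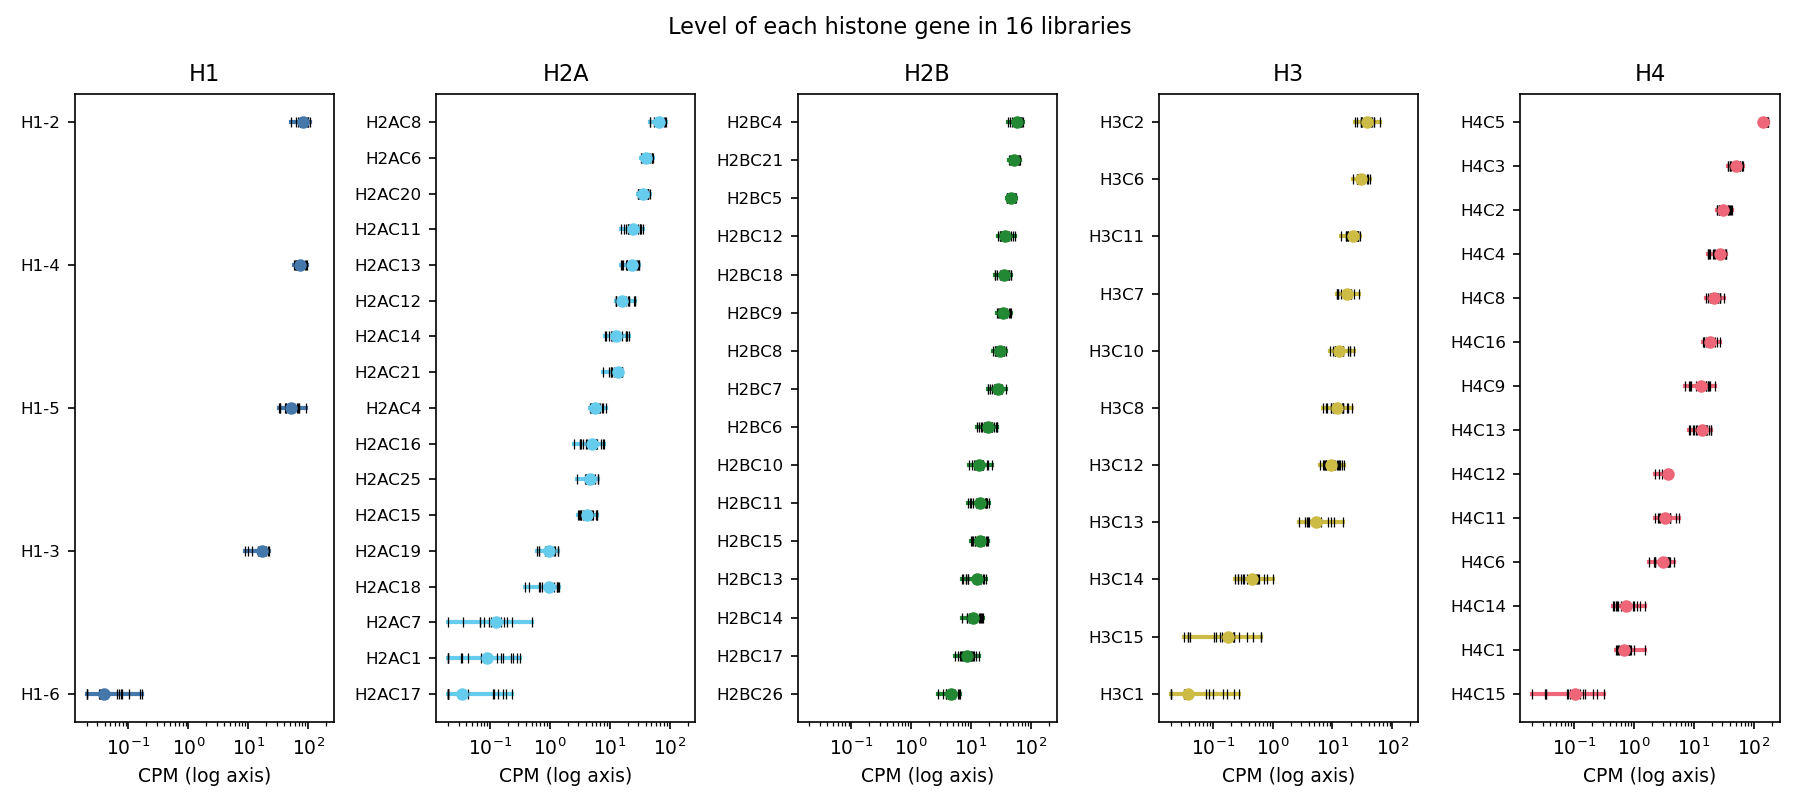
Level of each of the 63 histone genes, one panel per class, on a log axis of CPM. Ticks are the 16 libraries, the dot is their median and the line their range, and values under 0.02 CPM, 0 included, are drawn at 0.02. The 6 untested genes lie at the bottom of their panels, and H4C5 lies highest, at 128.7 to 172.4 CPM.

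Close copies limit what single values mean, because how multiply mapped reads were treated was not given in the sources used here. In 14 members, 11 of them tested, more than 50% of the 50-base stretches of the transcripts also occurred in another gene, and their median level was 0.971 CPM. In 44 members, 41 of them tested, less than 10% did, and their median level was 18.4 CPM. H2AC18 and H2AC19, H3C14 and H3C15, H4C11 and H4C12, and H4C14 and H4C15 are near-identical pairs. Annotated genes overlapped 7 members on the same strand and 10 on the other strand, and the strand setting of the counting was not given either.

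The summed level of the 63 genes was 0.107% to 0.176% of all reads. It came to 1095 and 1728 CPM in the colchicine libraries, 1228 and 1318 in epirizole, 1624 and 1441 in Ly-294002, 1399 and 1072 in moxifloxacin, 1479 and 1148 in rottlerin, 1526 and 1232 in vardenafil and 1754 and 1763 in rimonabant, against 1466 and 1209 CPM in DMSO, libraries 1 and 2 in each case. In these unscaled CPM the rimonabant libraries were the highest of the 16 and lay above both DMSO libraries, whereas in the other 6 compounds the range of the pair overlapped that of the DMSO pair. The largest gap within a pair was that of colchicine, whose libraries ranked 15 and 3 from the top among the 16. After scaling by library factors the rimonabant libraries, at 1756 and 1685 CPM, still lay above the DMSO libraries, at 1488 and 1227 CPM, but colchicine 2 with 1724 CPM lay between the rimonabant libraries. In bulk RNA, fewer cycling cells and less histone RNA per cell cannot be told apart.

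**Figure D2:**
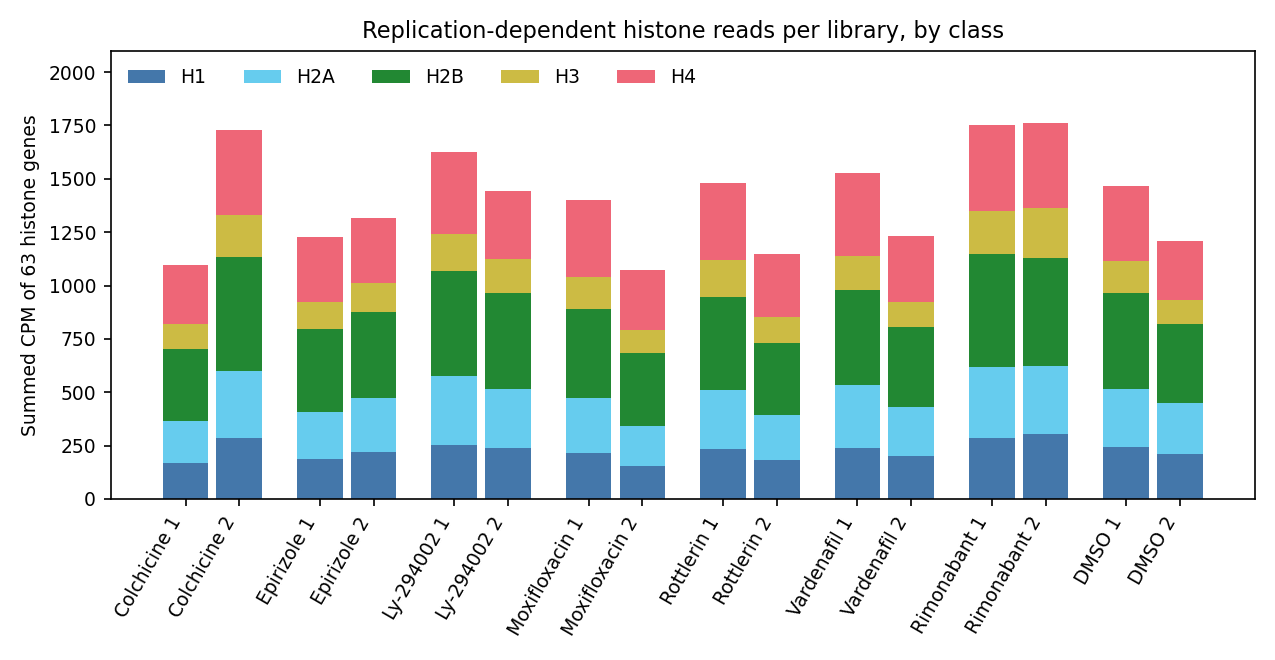
Summed level of the 63 histone genes in each of the 16 libraries, in CPM, stacked by class from H1 at the bottom to H4 at the top. The rimonabant libraries reach 1754 and 1763 CPM, while the colchicine libraries lie at 1095 and 1728 CPM and the DMSO libraries at 1466 and 1209 CPM.

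In 7 of the 8 groups most members differed in the same direction between the 2 libraries. In colchicine all 57 tested members were higher in library 2, by a median of 0.64 on the log2 scale. In vardenafil 56 of 57 were higher in library 1, in moxifloxacin 54, in rottlerin 53 and in Ly-294002 48, while in epirizole 43 were higher in library 2. The rimonabant pair stood apart, with 33 of 57 higher in library 1 and a median of 0.03. In DMSO 53 of 57 were higher in library 1, by a median of 0.32. Over all tested genes these shares lay between 47.9% and 51.7%. The first principal component of the members' levels held 68.09% of their variance over the libraries, against 21.21% for all tested genes. The members' median biological coefficient of variation was 0.205, against 0.187 over all tested genes.

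The sums of other gene groups were set beside the histone sum. Over the 16 libraries the highest histone sum was 1.64 times the lowest. For 12 genes listed as replacement histones this ratio was 1.05, with sums of 1561 to 1643 CPM. For 20 S phase genes it was 1.60, with 462.2 CPM in colchicine 1 as the lowest and 739.3 CPM in rimonabant 2 as the highest sum, and for 12 genes of G2 and mitosis it was 2.41. Within each group, and in unscaled CPM, the library with the higher histone sum also had the higher S phase sum and the higher G2 and mitosis sum in 8 of 8 pairs.

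The same library was the higher one in 7 of 8 pairs for 8 histone chaperone genes and for 10 mesenchyme genes, and in 3 of 8 for 16 endocrine genes. It was so in 5 of 8 pairs for replacement histones and in 4 of 8 for 15 genes of histone transcription and 3′ end processing, for the 13 mitochondrial protein genes, and for the GC difference described further on. In the rimonabant pair the histone sums were only 1754 and 1763 CPM, and after scaling by library factors their order turned round. Endocrine genes ranged most widely of these lists apart from blood and immune genes, with 193.3 CPM in colchicine 2 and 642.0 in moxifloxacin 2. The part of culture composition in these differences was not tested.

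**Figure D3:**
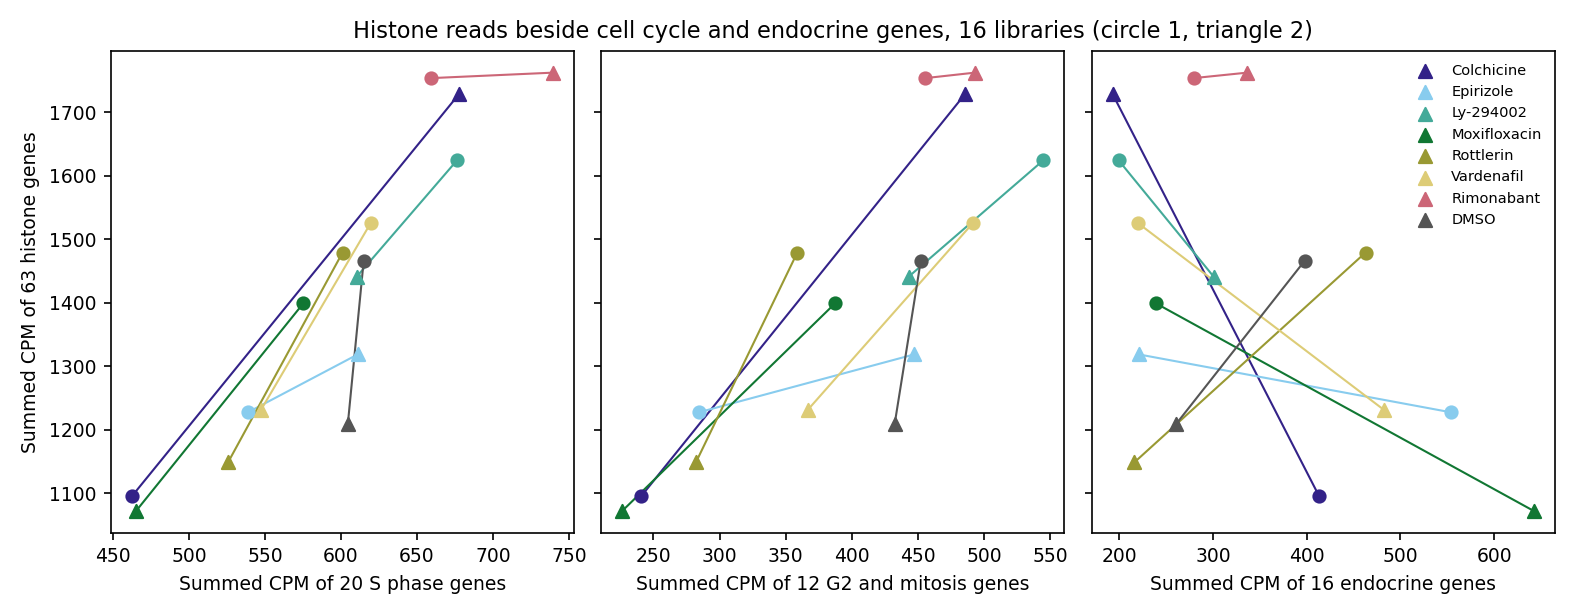
Summed level of the 63 histone genes (vertical axis) against the summed level of S phase, G2 and mitosis, and endocrine genes (horizontal axes), all in CPM. Lines join the 2 libraries of a group, circle for 1 and triangle for 2. In the S phase panel and the G2 and mitosis panel all 8 lines rise to the right, and in the endocrine panel 3 do.

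Each compound was then compared with DMSO by edgeR's quasi-likelihood test over all 24515 genes, and a gene was called at a Benjamini-Hochberg adjusted p under 0.05. All comparisons share the same 2 DMSO libraries. In 6 of the 7 comparisons no histone gene passed. In colchicine 0 of 57 members were called, where 0.196% of all genes were, in rottlerin 0, where 0.00816% were, and in epirizole, Ly-294002, moxifloxacin and vardenafil 0, where 0% were. DESeq2 also called 0 members in these 6 comparisons, where it called 3.78% of all genes in colchicine, 2.77% in rottlerin, 0.253% in moxifloxacin, 0.00816% in vardenafil and 0% in epirizole and Ly-294002. At an unadjusted p under 0.05 edgeR gave 2 members in colchicine (17.5% of all genes), 0 in epirizole (5.26%), 1 in Ly-294002 (4.69%), 2 in moxifloxacin (11.9%), 2 in rottlerin (14.8%) and 1 in vardenafil (5.22%). None of these counts stood above the share over all genes.

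The medians of these 6 comparisons were all smaller than the median gap of 0.32 between the DMSO libraries. The median log2 change was 0.08 in colchicine with 40 members above 0, −0.04 in epirizole with 19, 0.19 in Ly-294002 with 48, −0.09 in moxifloxacin with 19, −0.03 in rottlerin with 26 and 0.03 in vardenafil with 32. The medians over all tested genes lay between −0.01 and 0.00. Leaving out 1 library at a time moved the colchicine median over −0.31 to 0.44 and the moxifloxacin median over −0.33 to 0.11, and in 5 of these 6 comparisons, Ly-294002 being the exception with 0.04 to 0.44, the sign of the median turned. With an offset for GC content the medians of colchicine and vardenafil turned to −0.01 and −0.02, and those of rottlerin, epirizole and moxifloxacin moved to −0.13, −0.09 and −0.17, with 16, 14 and 16 members above 0.

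Both libraries lay above both DMSO libraries in 19 members under Ly-294002, where 19.5% of all genes did, and below them in 5, where 19.5% did. Under moxifloxacin 4 lay above, where 23.2% of all genes did, and 12 below, where 24.4% did. Under rottlerin 5 lay above (23.6% of all genes) and 11 below (24.4%), and under epirizole 3 above (19%) and 7 below (19%). Under vardenafil 4 lay above (19.4%) and 3 below (20%), and under colchicine 3 above (24.5%) and 3 below (25.8%). Where the libraries of a pair lay far apart, as in colchicine, few members could lie wholly outside the DMSO pair.

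The members with the smallest p in these comparisons are given as values that did not pass. H4C11, of H4, had 4.98 and 3.98 CPM with Ly-294002 and 5.69 and 2.71 CPM with rottlerin, against 2.58 and 2.27 CPM in DMSO, and both pairs lay above the DMSO pair. Its log2 differences were 0.87 (adjusted p = 0.969 by edgeR) and 0.77 (0.272), and 81.17% of its 50-base stretches are shared with H4C12. H2BC4 had 53.3 and 44.9 CPM with moxifloxacin, against 67.4 and 59.3 CPM in DMSO, a log2 difference of −0.40 with an adjusted p of 0.404 by edgeR.

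H2BC7, an H2B gene, had 22.7 and 19.1 CPM with rottlerin and 24.6 and 21.0 CPM with moxifloxacin, against 30.74 and 28.96 CPM in DMSO. Its log2 differences were −0.53 and −0.41, with adjusted p of 0.273 and 0.462 by edgeR, and both pairs lay below the DMSO pair. H2AC18 had a log2 difference of −1.04 with moxifloxacin on levels of 0.681 and 0.389 CPM, against 0.987 and 1.17 CPM in DMSO (adjusted p = 0.409 by edgeR), and its sequence is wholly shared with H2AC19. With Ly-294002, H2AC14 differed by 0.63 and H3C12 by 0.65, both with an adjusted p of 0.969 by edgeR. With epirizole, H2AC6 differed by −0.25 (adjusted p = 0.901 by edgeR) and H2BC18 by −0.34 (0.911), and with vardenafil H4C6 differed by 0.60 (0.890).

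**Figure D4:**
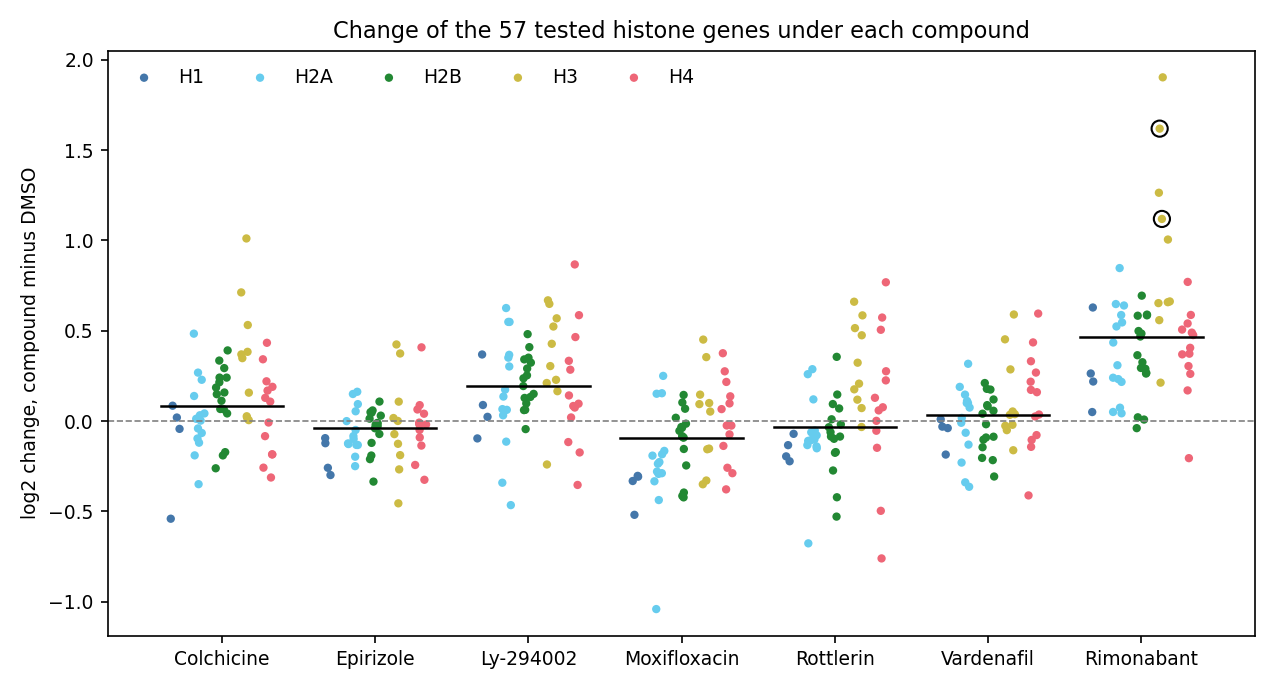
Log2 change, compound minus DMSO, of the 57 tested histone genes under each of the 7 compounds, coloured by class, with a black bar at the median. The 2 genes past an adjusted p of 0.05, H3C13 at 1.62 and H3C10 at 1.12, are ringed, both under rimonabant. Under rimonabant 55 of 57 points lie above 0, and the median is 0.47.

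Rimonabant was the comparison in which histone genes passed the test. Of 57 members 2 were called, both higher, where 7.8% of all genes were called, 5.03% higher and 2.77% lower. In this fit the share called was thus no larger among histone genes than over all genes. Without the filter on low counts it was larger, with 14 of 63 members called, where 6.01% of all genes were. DESeq2 called 6 members, where 12% of all genes were called. At an unadjusted p under 0.05 there were 10 members by edgeR, where 24.8% of all genes were. The median log2 change was 0.47 with 55 members above 0, against a median of 0.00 over all genes with 50.35% above 0. Between the 2 DMSO libraries alone the median gap was 0.32, with 53 of 57 members higher in library 1. Members moved together, so counts of members are not counts of separate observations. Both rimonabant libraries lay above both DMSO libraries in 41 members, where 26.8% of all genes did, and below them in 1, where 26.4% did.

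The difference was uneven over the classes. The median log2 change was 0.83 for the 10 H3 genes, 0.41 for 13 H4 genes, 0.37 for 14 H2A genes, 0.35 for 16 H2B genes and 0.24 for 4 H1 genes. All tested H3, H2A and H1 genes lay above 0, and so did 12 of 13 H4 and 15 of 16 H2B genes. H3 genes held 13.25% of the histone reads in rimonabant 2, against 9.06% to 11.7% in the other 15 libraries. With an offset for GC content the medians were 0.66, 0.27, 0.08, 0.26 and −0.06 in the same order, so that of the H1 genes changed sign. No test was made of the difference between classes.

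H3C10 (ENSG00000278828, on the plus strand of GRCh38, chr6:27810064-27811300, 1 exon) had 19.7 and 23.2 CPM in rimonabant cultures, against 10.1 and 8.92 CPM in DMSO cultures, and the groups did not overlap. After scaling by library factors it averaged 21.0 ± 1.76 CPM in rimonabant and 9.65 ± 0.841 CPM in DMSO (SD, n = 2 each). By edgeR's quasi-likelihood test it rose, with a log2 change of 1.12 ± 0.24 (SE) and an adjusted p of 0.0193. With the GC offset the change was 1.15 and did not pass (adjusted p = 0.223 by edgeR). None of its 50-base stretches occur in another gene's transcripts, and its stem-loop and promoter are the ones printed for it above.

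H3C10 was also above both DMSO libraries in every other compound library. It had 12.2 and 19.3 CPM with colchicine, 12.6 and 13.2 with epirizole, 14.8 and 11.1 with Ly-294002, 13.7 and 11.1 with moxifloxacin, 14.9 and 12.5 with rottlerin and 18.0 and 10.9 with vardenafil. The log2 differences from the shared DMSO libraries were 0.71, 0.42, 0.43, 0.35, 0.51 and 0.59 in the same order, with adjusted p of 0.148, 0.901, 0.969, 0.592, 0.347 and 0.890 by edgeR. Since all of these rest on the same DMSO pair, they are not separate observations of a change.

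H3C13 (ENSG00000183598, on the minus strand of GRCh38, chr1:149813271-149813681, 1 exon) had 9.38 and 15.2 CPM with rimonabant, against 4.94 and 2.76 CPM in DMSO. By edgeR it rose, with a log2 change of 1.62 ± 0.41 (SE) and an adjusted p of 0.0359. The call was lost with a replicate block (adjusted p = 0.0522 by edgeR) and with the GC offset, where the change was 0.90 (0.446). The groups did not overlap, but 80.39% of its 50-base stretches also occur in other genes, so its reads cannot be told apart from those of its copies with certainty. With colchicine it had 5.02 and 10.6 CPM, a log2 difference of 1.01 that did not pass (adjusted p = 0.226 by edgeR), and with vardenafil 4.06 and 3.42 CPM, a difference of −0.05 (0.994).

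H3C6 came next by p, with 37.8 and 42.4 CPM in rimonabant cultures, against 30.7 and 21.8 CPM in DMSO cultures, and a log2 difference of 0.56 ± 0.17 (SE) that did not pass (adjusted p = 0.0565 by edgeR). In colchicine it differed by 0.35 (adjusted p = 0.308 by edgeR). H3C2, the H3 gene with the most reads, had 50.2 and 62.9 CPM with rimonabant, against 38.6 and 30.3 CPM in DMSO, a log2 difference of 0.66 (adjusted p = 0.245 by edgeR). Both genes had non-overlapping groups and did not pass.

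The most abundant genes of the other classes differed less. With rimonabant H4C5 had 172.4 and 169.8 CPM, against 158.9 and 134.6 CPM in DMSO, a log2 difference of 0.17. H1-2 differed by 0.26, H1-4 by 0.22, H2AC6 by 0.24, H2BC21 by 0.29 and H4C3 by 0.30, and H2AC8 and H2BC4 by 0.04 and 0.01. None of these 8 genes passed, with adjusted p of 0.249 to 0.986 by edgeR. With the GC offset described further on, H1-2, H1-4, H2AC8 and H2BC4 changed sign, and the last 2 did so without single libraries too.

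**Figure D5:**
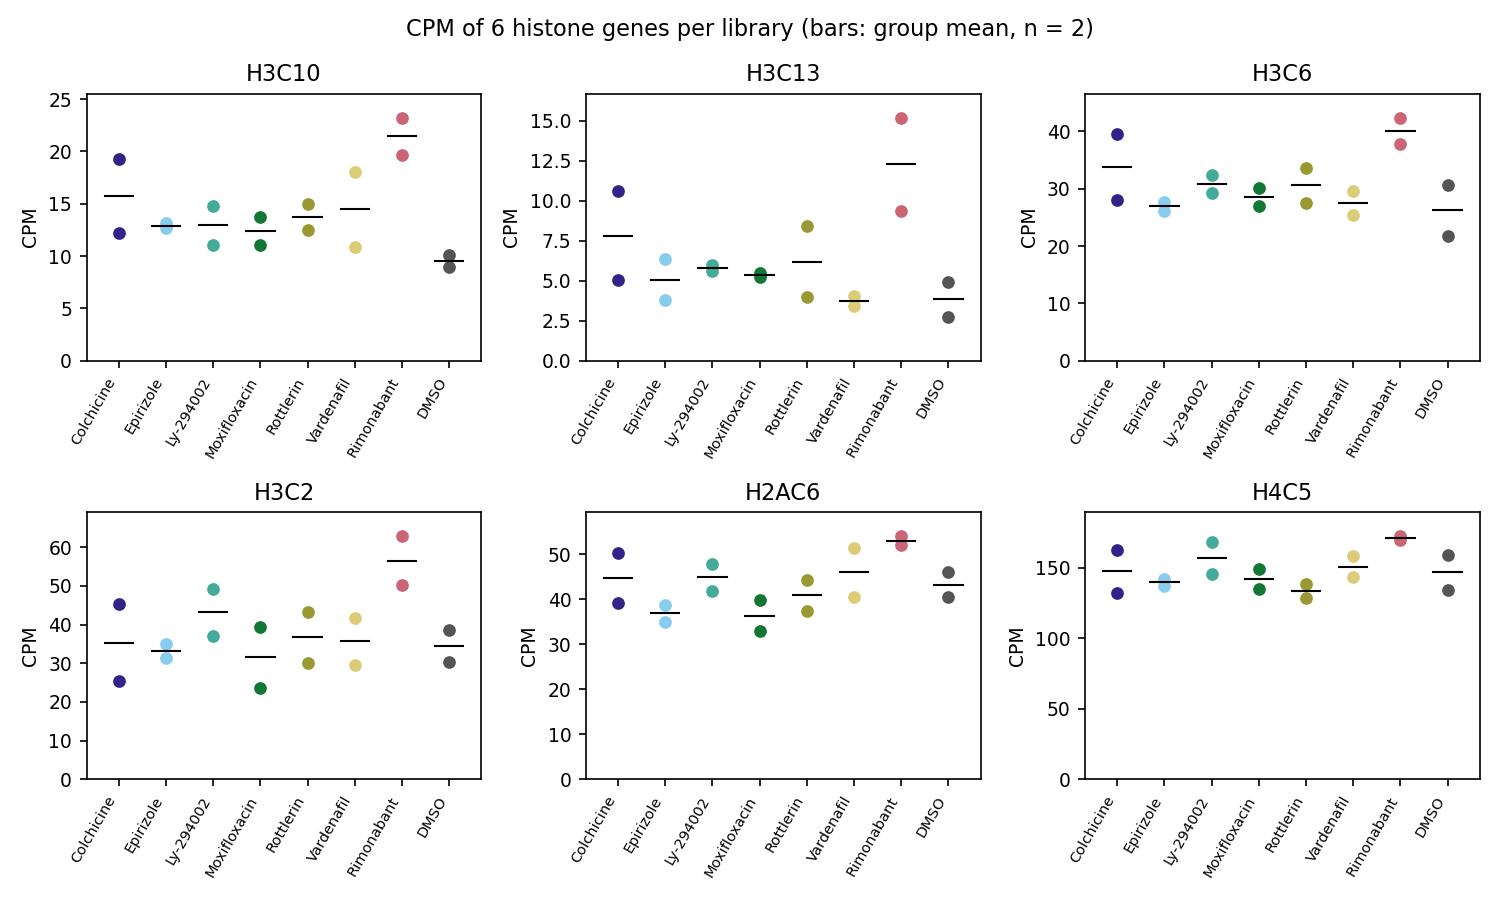
CPM of 6 histone genes in each library, by group, with bars at the group mean (n = 2). H3C10 and H3C13 passed the test under rimonabant, with H3C10 at 19.7 and 23.2 CPM in rimonabant and 10.1 and 8.92 CPM in DMSO, while H3C6, H3C2, H2AC6 and H4C5 did not pass.

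A joint test of the 7 compounds, which reads the DMSO libraries once, called 0 of 57 members by edgeR, where 0.00408% of all genes were called. DESeq2's joint test called 2 members, where it called 4.96% of all genes, and 3 had an unadjusted p under 0.05 by edgeR, where 12.9% of all genes did. The smallest p were those of H3C13 (adjusted p = 0.288 by edgeR), H3C10 (0.295), H2AC6 (0.385), H3C6 (0.396) and H2BC14 (0.408).

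The rimonabant calls moved with single libraries and with base composition. Leaving out a library leaves 1 in its group, which is then assumed to vary like the other groups. Without rimonabant 2, 0 members and 0 genes in all were called by edgeR. The members' median was then 0.50, with 53 of 57 above 0. Without DMSO 1 or without DMSO 2, 0 members and 0 genes in all were called too, with medians of 0.57 and 0.26, so every rimonabant call given here was lost in each of these 3 cases. In the fit without rimonabant 1, which leaves rimonabant 2 alone in its group, calls remained. The members' median was then 0.40, with 49 of 57 above 0.

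A smooth curve of the genes' log2 deviation on GC content was fitted in each library. Its mean over genes of 60% GC or more was taken less its mean over genes of 40% GC or less. This GC difference was 0.16 and 0.79 in the rimonabant libraries, against −0.36 and −0.41 in the DMSO libraries. The DMSO libraries had the lowest values of the 16 and rimonabant 2 the highest. The tested members had a median GC of 57.37%, against 48.89% over tested genes with a known sequence. With an offset for GC content, 0 members were called by edgeR in rimonabant, where 0.0163% of all genes were, 41 of 57 lay above 0 and the median was 0.24. For the 28 members above the median GC of the members the median was 0.51 without the offset and 0.08 with it, and for the other 29 it was 0.37 and 0.36. GC content was that of the GENCODE models, some of which run on far behind the stem-loop. The model of H2BC9 has 41.55% GC over 2060 bases, against a RefSeq length of 462. That of H3C10 has 49.07% over 1237 bases, against 486. The members' values with the offset therefore depend on these models, and other models were not tried. The summed mitochondrial protein genes were 21798 and 14152 CPM in rimonabant, against 26523 and 28364 CPM in DMSO. Of the 13, 4 fell in rimonabant and all 13 lay below 0, with MT-ND2 at −1.08, MT-ND5 at −0.75, MT-ND6 at −1.30 and MT-ATP8 at −1.58 on the log2 scale. Of 17 genes read as signs of library quality, these among them, 16 lay below 0 with a median of −0.75. The nuclear RNA MALAT1 fell by 0.45 and RN7SL1, the RNA of the signal recognition particle, rose by 1.14. None of these 6 calls held with the GC offset. The 13 mitochondrial genes also lay below 0 in each of the other 6 comparisons, with medians of −0.64 to −0.24 and 0 called by edgeR. How far this difference between libraries enters the histone values beyond the offset was not tested.

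Genes that act with histone transcripts were read in the same fits from lists of known roles. Of 20 S phase genes 0 were called in rimonabant by edgeR, and 15 lay above 0 with a median log2 change of 0.15. PCNA, the DNA polymerase clamp, differed by −0.19, and SLBP, which binds the stem-loop, by −0.11, neither passing (adjusted p of 0.633 and 0.624 by edgeR). Of 12 G2 and mitosis genes 0 were called and 10 lay above 0, with a median of 0.13, and the proliferation marker MKI67 differed by 0.09 (adjusted p = 0.925 by edgeR).

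Of 15 genes of histone transcription and 3′ end processing, 1 rose and 1 fell. SYMPK, a scaffold of the 3′ end cleavage complex, rose by 0.47 and NPAT fell by 0.44 on the log2 scale (adjusted p of 0.0229 and 0.0217 by edgeR). Of 7 decay genes, the helicase UPF1 rose by 0.37, and the uridylyl transferase TUT7 and the exosome helicase MTREX fell by 0.28 and 0.39 on the log2 scale. Of 8 chaperone genes, ASF1A fell by 0.48 on the log2 scale. None of these 6 calls held with the GC offset.

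Of 12 replacement histone genes, 2 rose and 1 fell in rimonabant. H2AX, the variant phosphorylated at DNA breaks, had 30.4 and 45.3 CPM in rimonabant, against 16.4 and 16.7 CPM in DMSO, and rose by 1.13 on the log2 scale (adjusted p = 0.0120 by edgeR). H1-10 rose by 0.90, and H3-3B, which encodes the replacement histone H3.3, fell by 0.33 with 493.3 and 487.6 CPM in rimonabant, against 597.5 and 594.7 CPM in DMSO. H2AZ1, which encodes H2A.Z, differed by 0.03 and did not pass (adjusted p = 0.917 by edgeR). With the GC offset the differences were 0.44 for H2AX, 0.14 for H1-10 and −0.57 for H3-3B, none past the threshold. In the other 6 comparisons no gene of these lists was called by edgeR. Their directions differed between compounds. With moxifloxacin 0 of 20 S phase genes and 0 of 12 G2 and mitosis genes lay above 0, with medians of −0.26 and −0.35. With Ly-294002 14 of 20 and 11 of 12 did, with medians of 0.06 and 0.17. With rottlerin 5 of 20 and 0 of 12 did, with epirizole 5 and 1, with colchicine 6 and 4 and with vardenafil 7 and 7. The part of these in the histone medians was not tested.

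Markers of other cell types were read with the same tests. Endocrine genes lay above 0 in 15 of 15 with moxifloxacin and in 2 of 15 with Ly-294002, and mesenchyme genes in 0 of 10 with moxifloxacin, colchicine, rottlerin and vardenafil. Moxifloxacin libraries 1 and 2 had endocrine sums of 239.5 and 642.0 CPM, and Ly-294002 libraries 199.6 and 300.9 CPM. Both ranges overlapped that of DMSO, given below, and moxifloxacin 1 lay under both DMSO libraries. Of 15 tested endocrine genes 1 was called in rimonabant, PCSK1N, which rose by 1.34, while 13 lay below 0. CHGA, a secretory granule protein, had 62.9 and 162.8 CPM in rimonabant, against 167.9 and 88.9 CPM in DMSO. The endocrine sum was 279.5 and 336.3 CPM in rimonabant, against 397.7 and 261.1 CPM in DMSO. Of 8 liver and gut genes APOA1 rose by 0.90, of 5 duct and progenitor genes KRT19 rose by 0.37 (−0.02 with the GC offset), and of 10 mesenchyme genes 0 were called. CDKN1A, a cell cycle inhibitor, rose by 1.13 in colchicine, by 0.71 in rottlerin and by 0.39 in rimonabant (adjusted p of 0.000297, 0.0484 and 0.0343 by edgeR), and with the GC offset the call held in colchicine alone. The colchicine call held without any single library, and the rottlerin call was lost without each of the 4 libraries in turn. The part of these markers in the histone values was not tested.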

How the data were processed

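The measurement was bulk total RNA sequencing of 16 libraries, 8 groups of 2, grouped by the library name in the labels. Per the labels' protocols, the authors removed ribosomal RNA with RiboErase (KAPA RNA HyperPrep), trimmed reads with Trimmomatic 0.38, aligned them with STAR 2.7.1a and counted them with featureCounts 1.6.0 or HTSeq. The submitters' processing notes named HTSeq and GRCh38. Not given in the sources used here were the gene annotation, whether counting used strand, and what became of duplicates and of reads with several alignments. The deposited values were raw counts per gene, not normalised by the authors, with 0 columns left unmapped.

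Counts were fitted in R 4.3.3 with edgeR 4.0.16, using filterByExpr (24515 genes, 99.92% of reads), TMM factors, 1 quasi-likelihood fit of all 16 libraries with 8 residual degrees of freedom, and two-sided tests with Benjamini-Hochberg adjustment over the 24515 genes. The members, lists and alternatives were chosen with earlier results of these data known. CPM per library are plain, and group means with SD are TMM-scaled. The SE of a log2 change was derived from the test, as the absolute log2 change divided by the square root of its F statistic. Gene models came from GENCODE release 29, where 60 members matched by gene ID and 3 by an older symbol, and promoters from RefSeq. Named genes were the 2 members of each class with the highest mean level, those past the threshold, the 3 smallest p in a comparison with none, the 5 smallest joint p, a panel of 10 other genes, and list members past the threshold. One gene of the panel is not reported here. Alternatives were DESeq2 1.42.0, RLE factors, no filter on low counts, a replicate block, a GC offset, block and offset together, and leaving out each library in turn.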

Additional observations from a re-analysis of the deposited data

How the results depend on the processing

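The count of histone genes called depended on the processing in rimonabant, where edgeR gave 2. It was 6 with DESeq2, 14 of 63 without a filter on low counts, 1 with a replicate block, 0 with a GC offset and 0 with block and offset together. Without the filter, colchicine gave 2, rottlerin 1 and the joint test 26, and DESeq2's joint test gave 2. The shares of all genes called without the filter were 6.01% in rimonabant, 3.51% in colchicine, 2.41% in rottlerin and 6.76% in the joint test. In rimonabant and in the joint test the share called was then larger among the 63 members than over all genes. Without the filter 44689 genes were tested, against 24515 with it. The cause of the differences between settings was not tested for any of them. Over all genes, rimonabant gave 1913 by edgeR, 2936 by DESeq2, 1090 with the block and 4 with the GC offset, colchicine gave 48, 926, 5 and 1, rottlerin 2, 678, 2 and 0, and the joint test 1, 1217, 1 and 1. Whether the replicate numbers pair the libraries is not given in the labels. Correlations of same-numbered deviations ran over −0.28 to 0.23 in 28 pairs of groups and passed 0.1 in 5, which cannot settle it. The block changed no count of members called outside rimonabant.

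In rimonabant H3C10 kept a log2 change of 1.15 with the GC offset (adjusted p = 0.223 by edgeR) and H3C13 one of 0.90 (0.446), and H3C13 had an adjusted p of 0.0522 with the block. With the offset the direction turned, at −0.0207 for H1-2, −0.163 for H1-4, −0.179 for H2AC8, −0.0352 for H2BC4 and −0.0171 for KRT19, and with block and offset at −0.0204, −0.163, −0.187, −0.0356 and −0.0171. H2BC4 turned to −0.00056 with DESeq2 and −0.00055 with RLE factors. Leaving out 1 library moved H2AC8 over −0.15 to 0.22, H2BC4 over −0.11 to 0.13, H2AZ1 over −0.0688 to 0.13 and CHGA over −1.04 to 0.28. Over 560 values of named genes under the alternatives, 412 kept direction and side of the threshold, 19 turned, 123 lost a call and 6 gained one. The cause was not tested. With 2 libraries a group, differences that did not pass are not shown to be absent.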
